A study of Mus musculus with 6 samples.

Results

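The nicotinic acetylcholine receptor subunit genes of embryonic skeletal muscle (Chrna1, Chrnb1, Chrnd and Chrng) were examined together with Musk and Rapsn, whose products gather the receptors at the nerve contact, in tongues of mouse embryos. The 6 genes were taken by name, using every probe set whose annotation lists one of them as its single gene. They had 8 probe sets among 34945 with a single gene symbol, and 6 of the 18193 genes that these read. Chrng had 3 probe sets and the other 5 genes had 1 each. The mutant samples were tongues of 3 embryos of genotype Tgfbr2 fl/fl; Wnt1-Cre, in which both copies of the type II TGF-beta receptor gene were floxed and exposed to a Cre recombinase under the Wnt1 promoter, which works in neural crest cells, so that their offspring carry the deletion too. They were set against 3 controls of genotype Tgfbr2 fl/fl, which carry the same floxed alleles without Cre and whose titles call them wildtype. All embryos were C57BL/6J at embryonic day 14.5, with the sex not determined, and each sample gave 1 Affymetrix array. The titles and protocols name the tongue and the sample descriptions name its mesenchyme, and both muscle and epithelial genes were well measured on every array. The study's question was which genes of the forming tongue muscle respond to loss of TGF-beta signalling in the neural crest.

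At the neuromuscular junction, acetylcholine released by the motor nerve opens a channel of 5 subunits in the muscle membrane. The fetal channel holds 2 alpha subunits with a beta, a delta and a gamma subunit, and the adult channel has epsilon, encoded by Chrne, in place of gamma. Agrin, encoded by Agrn and secreted by the nerve, binds Lrp4, which activates the kinase MuSK with the help of Dok7. Rapsyn, encoded by Rapsn, anchors the receptors beneath the membrane. Embryonic muscle makes receptors along the whole fibre before innervation concentrates them. In the tongue the muscle fibres come from mesoderm, so the Wnt1-Cre driver is not known to delete Tgfbr2 in them, while the neural crest gives rise to the connective tissue around the fibres and to the glia of the nerves.

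Of the 6 genes, 4 had an entry in the RefSeq promoter table (build GRCm38.p6). The 250 bases before the start are shown for these and for Chrne, because genes of this receptor are commonly described through E-boxes, the sites of the myogenic bHLH factors. The windows are Chrng at chr1:87205561-87205810 (+ strand), Musk at chr4:58285712-58285961 (+ strand), Chrna1 at chr2:73580339-73580588 (- strand), Chrnb1 at chr11:69795938-69796187 (- strand) and Chrne at chr11:70619195-70619444 (- strand), each written 5′ to 3′. Capitals mark every match to the E-box letters CANNTG, which read the same class of site on both strands.
Chrng: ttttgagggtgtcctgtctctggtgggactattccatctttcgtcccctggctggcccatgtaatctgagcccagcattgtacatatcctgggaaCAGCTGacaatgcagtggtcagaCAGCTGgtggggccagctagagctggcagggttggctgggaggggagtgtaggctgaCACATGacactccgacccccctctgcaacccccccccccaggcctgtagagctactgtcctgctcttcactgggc
Musk: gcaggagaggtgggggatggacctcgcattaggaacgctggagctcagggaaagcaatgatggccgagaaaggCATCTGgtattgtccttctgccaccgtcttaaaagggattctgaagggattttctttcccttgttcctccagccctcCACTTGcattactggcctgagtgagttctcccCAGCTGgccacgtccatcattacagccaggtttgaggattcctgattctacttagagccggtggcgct
Chrna1: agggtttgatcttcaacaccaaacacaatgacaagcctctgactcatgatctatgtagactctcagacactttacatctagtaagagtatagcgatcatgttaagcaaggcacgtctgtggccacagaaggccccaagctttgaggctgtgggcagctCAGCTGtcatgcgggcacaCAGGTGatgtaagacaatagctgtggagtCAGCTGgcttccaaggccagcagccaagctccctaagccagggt
Chrnb1: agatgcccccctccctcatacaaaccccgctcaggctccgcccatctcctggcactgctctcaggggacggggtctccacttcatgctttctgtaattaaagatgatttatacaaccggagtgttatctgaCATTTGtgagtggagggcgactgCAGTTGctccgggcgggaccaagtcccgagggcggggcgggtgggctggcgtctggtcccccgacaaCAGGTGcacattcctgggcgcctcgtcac
Chrne: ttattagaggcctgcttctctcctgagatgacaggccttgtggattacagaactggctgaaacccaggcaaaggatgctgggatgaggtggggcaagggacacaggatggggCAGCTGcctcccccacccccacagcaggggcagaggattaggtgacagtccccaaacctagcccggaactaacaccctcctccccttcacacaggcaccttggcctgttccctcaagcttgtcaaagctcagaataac
Chrna1, Chrnb1, Chrng and Musk each held 3 matches to CANNTG and Chrne held 1. At least 1 match was held by 66.2% of the 32851 RefSeq windows of this length. The share holding 3 or more was not counted, so whether 3 matches are unusual was not tested. The form CAGCTG, which is a case of CANNTG, was present in 13.0% of all windows. Chrng held 2 copies, starting 155 and 132 bases before the start, Chrna1 held 2, at 92 and 44 bases, Musk held 1, at 68 bases, Chrne held 1, at 138 bases, and Chrnb1 held none. The N-box letters CCGGAA, searched on both strands and found in 3952 of the 32851 windows, matched once in the window of Chrne and in none of the 4 member windows. These matches describe letters in a window and are not evidence of binding. Chrnd and Chrng lie next to each other on chromosome 1, with 0 other genes listed between them.

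None of the 6 genes passed the test over all genes, but all had a lower mean in the mutants. Values are log2 expression as deposited by the authors, where a difference of 1 is a doubling. Of the 6, 0 had an adjusted p under 0.05 (limma, Benjamini-Hochberg adjustment over the 13645 tested genes), where 2.14% of all tested genes did and 0.821% did so with a lower level in the mutants. At an adjusted p under 0.1, 1 of the 6 passed, Musk, where 4.02% of all genes did, and with the replicate number as a block 0 of the 6 passed at 0.05, where 3.59% did. An unadjusted p under 0.05 was reached by 3 of the 6 (16.9% of all tested genes). In 3 of the 6, Chrnd, Chrng and Musk, every mutant array lay below every control array, as in 11.5% of all tested genes. The fitted difference was below 0 in 6 of 6 members and in 46.6% of all tested genes, and its median was -0.34 over the members (-0.18 without mutant array 1) and 0.016 over all tested genes. All 6 genes passed the filter on low values, which left out genes whose mean lay under 5.17. No label ties the tongues to separate litters, and the p-values reflect only how far these 6 arrays scatter. In whole tongue, fewer muscle cells and less RNA per cell cannot be told apart.

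Mutant array 1 stood apart from the other arrays and was the lowest array for 5 of the 6 members. Over the tested genes it correlated with the others at 0.9658 to 0.9782, whereas the other 5 arrays correlated with each other at 0.9841 or more. It was the lowest of the 6 arrays for 32.6% of all tested genes. The members' results are therefore given with and without it. The targeted gene Tgfbr2 averaged 11.54 ± 0.34 in mutants and 11.73 ± 0.15 in controls (SD, n = 3 each), with an adjusted p of 0.642 (limma). Its difference was -0.18, and 0.014 without mutant array 1. The place of its probes relative to the deleted part is not known here, so these values check nothing about the deletion.

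**Figure D1:**
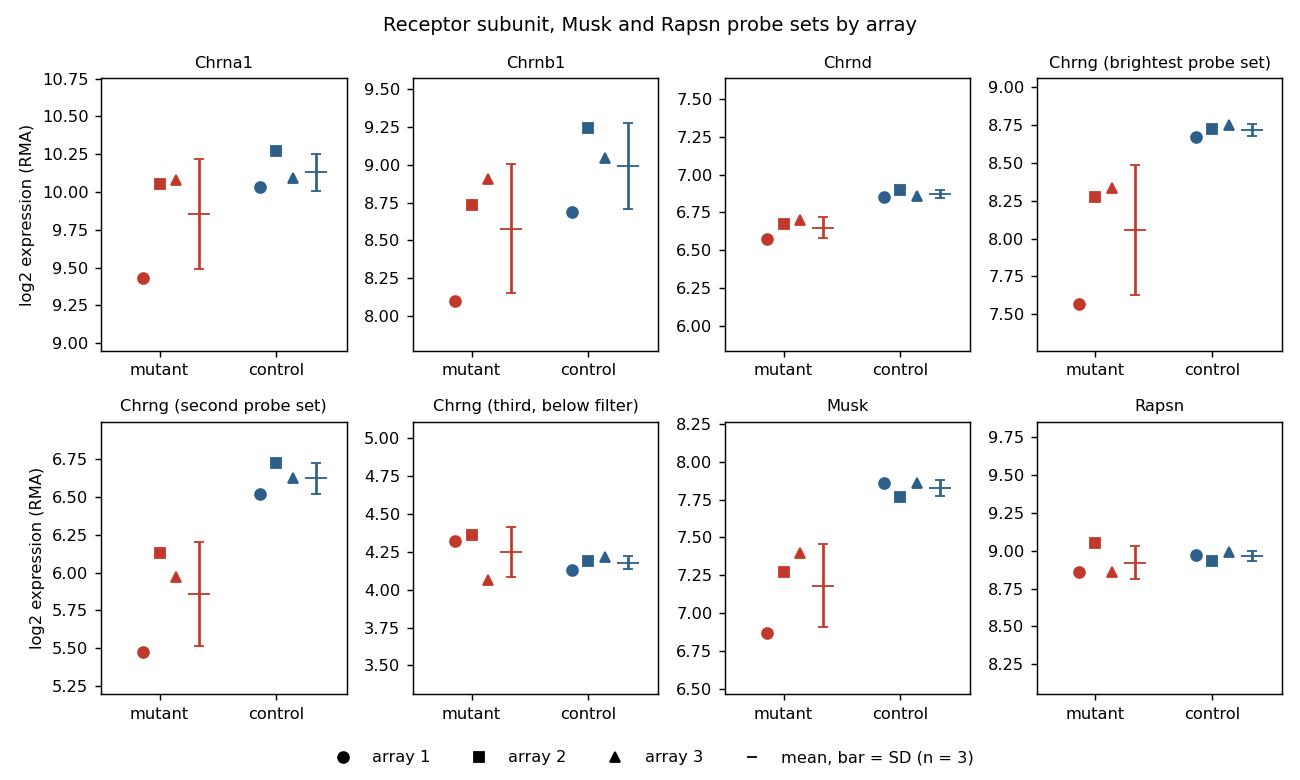
Log2 expression of the 8 member probe sets on each array, mutants left and controls right, with the mean and SD of 3 arrays beside the points; all panels span the same number of log2 units. The mutant points of Chrnd, of Musk and of both brighter Chrng probe sets lie below all control points, while those of Rapsn and of the dimmest Chrng probe set overlap with the controls.

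Chrng, which encodes the gamma subunit that marks the fetal receptor, had the lowest fitted difference of the subunits. Its brightest probe set (1449532_at) had 7.57, 8.27 and 8.34 in mutant arrays 1, 2 and 3, against 8.68, 8.72 and 8.75 in control arrays 1, 2 and 3. The groups did not overlap, and the SD was 0.43 in mutants and 0.039 in controls. The log2 difference was -0.66 (standard error 0.20, 95% interval -1.12 to -0.19), a ratio of mutant to control of 0.634, and the adjusted p of 0.158 (limma) missed the threshold. Without mutant array 1 the difference was smaller, -0.41 (standard error 0.074), but passed with an adjusted p of 0.0291 (limma). In that fit 4.91% of all genes were called, 1.74% of all genes with a lower level in mutants, and 2 of the 6 members, Chrng and Musk, were among the lower ones.

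The other Chrng probe sets were a brighter and a dim one. The brighter (1452520_a_at) had 5.47, 6.13 and 5.97 in mutant arrays 1 to 3, against 6.52, 6.72 and 6.62 in control arrays 1 to 3, again with no overlap. Its log2 difference was -0.77 (95% interval -1.17 to -0.36, adjusted p = 0.0977 with limma on every probe set, where 1.49% of 24307 passed). Without mutant array 1 it was -0.57 (adjusted p = 0.0399 with limma, where 2.47% of probe sets passed), whereas the brightest probe set then missed narrowly in the fit on every probe set (adjusted p = 0.0507). The third (1427728_at) read between 4.06 and 4.36 in mutants and between 4.13 and 4.22 in controls, under the filter value, and its means differed by 0.069. Averaging the 3 probe sets gave a difference of -0.45 for the gene.

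Chrnd, which encodes the delta subunit and is the neighbour of Chrng, separated the groups by a smaller step. Its probe set (1420761_at) had 6.57, 6.68 and 6.70 in mutant arrays 1 to 3, against 6.85, 6.90 and 6.86 in control arrays 1 to 3. All mutants lay below all controls, and both groups were tight, with SDs of 0.068 in mutants and 0.025 in controls. The log2 difference was -0.22 (standard error 0.084, 95% interval -0.42 to -0.025, adjusted p = 0.248 with limma), and it was -0.18 (adjusted p = 0.210 with limma) without mutant array 1.

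Chrna1, which encodes the alpha subunit that carries most of the acetylcholine binding site, overlapped between the genotypes. Its probe set (1418852_at) had 9.43, 10.05 and 10.08 in mutant arrays 1 to 3, against 10.03, 10.27 and 10.10 in control arrays 1 to 3. Mutant array 1 was low, while mutant arrays 2 and 3 lay above control array 1. The log2 difference was -0.28 (95% interval -0.70 to 0.15, adjusted p = 0.482 with limma), and -0.066 (95% interval -0.29 to 0.15) without mutant array 1.

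Chrnb1, which encodes the beta subunit, showed the same order of arrays as Chrna1. Its probe set (1420682_at) had 8.10, 8.73 and 8.90 in mutant arrays 1 to 3, against 8.69, 9.24 and 9.04 in control arrays 1 to 3. Control array 1 lay below mutant arrays 2 and 3, so that the low end of each group was its array 1. The log2 difference was -0.41 (95% interval -0.95 to 0.13, adjusted p = 0.418 with limma), and -0.17 (95% interval -0.55 to 0.21) without mutant array 1.

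Musk, which encodes the receptor tyrosine kinase that starts receptor clustering, had the smallest p of the 6. Its probe set (1450511_at) had 6.87, 7.27 and 7.40 in mutant arrays 1 to 3, against 7.86, 7.77 and 7.86 in control arrays 1 to 3. The nearest mutant and control arrays were 7.40 and 7.77, and the SD was 0.28 in mutants and 0.053 in controls. The log2 difference was -0.65 (standard error 0.14, 95% interval -0.98 to -0.32), a ratio of 0.638, with an adjusted p of 0.0769 (limma). Without mutant array 1 it was -0.49 (standard error 0.081) and passed with an adjusted p of 0.0209 (limma).

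Rapsn, which encodes the scaffold that binds the receptors, had a fitted difference near 0. Its probe set (1449331_a_at) had 8.86, 9.05 and 8.86 in mutant arrays 1 to 3, against 8.97, 8.93 and 8.995 in control arrays 1 to 3. Mutant array 2 was the highest of all arrays and mutant array 3 the lowest. The log2 difference was -0.044 with a 95% interval of -0.26 to 0.17 (adjusted p = 0.842 with limma), and -0.013 without mutant array 1. With all arrays the interval of Rapsn overlapped that of Chrng (-1.12 to -0.19) but not that of Musk (-0.98 to -0.32). Taken within each array and relative to the control means, Chrng minus Rapsn was -1.04, -0.53 and -0.27 in mutant arrays 1 to 3, against -0.045 to 0.037 in controls. Musk minus Rapsn was -0.85, -0.64 and -0.32 in mutant arrays 1 to 3, against -0.029 to 0.026 in controls. These 2 pairs were chosen after their values were seen and were not tested.

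**Figure D2:**
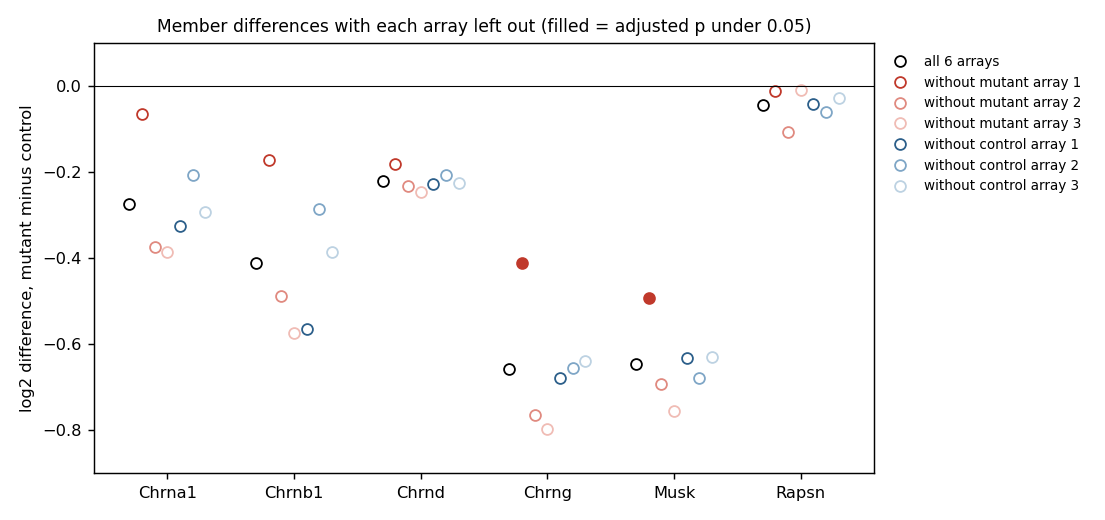
Log2 difference, mutant minus control, of each member with all 6 arrays (black) and with each array left out in turn; filled points have an adjusted p under 0.05. All points lie below 0, and the only filled ones are Chrng at -0.41 and Musk at -0.49 without mutant array 1.

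Leaving out 1 array at a time kept the sign of all 6 members. The difference of Chrng ranged from -0.80 to -0.41 and that of Musk from -0.76 to -0.49. Chrna1 ranged from -0.39 to -0.066, Chrnb1 from -0.57 to -0.17 and Rapsn from -0.11 to -0.011. Leaving out mutant array 1 moved Chrna1, Chrnb1, Chrng and Rapsn by over 1.5 times, and leaving out mutant array 2 or 3 did so for Rapsn. With array quality weights, which give less weight to arrays far from the fit, Chrng and Musk also passed, with adjusted p of 0.0310 and 0.0151 (limma). In that fit 7.58% of all genes were called, and 2.93% of all genes were called with a lower level in mutants.

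Chrne, the adult counterpart of Chrng, was dim and showed no difference beyond its spread. It had 5.77, 5.64 and 5.73 in mutant arrays 1 to 3, against 5.67, 5.65 and 5.59 in control arrays 1 to 3, with a log2 difference of 0.078 (95% interval -0.12 to 0.28, adjusted p = 0.676 with limma). The other nicotinic subunits, which belong to neurons and sensory cells, had 10 of 11 genes on the array, 5 of them above the filter and 0 called. The smallest p among them was that of Chrna4, with a difference of -0.24 (adjusted p = 0.291), followed by Chrna3 at 0.17, Chrnb3 at -0.072 and Chrna7 at 0.065.

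Upstream of MuSK, no agrin pathway gene was called. Agrn, encoding the nerve-derived and muscle-derived ligand, differed by 0.10 (95% interval -0.20 to 0.40, adjusted p = 0.730 with limma), and averaging its 2 probe sets turned the sign, to -0.13; without mutant array 1 it was 0.23. Lrp4, encoding the agrin receptor, had 8.46, 9.07 and 8.82 in mutant arrays 1 to 3, against 8.63, 8.68 and 8.62 in control arrays 1 to 3, a difference of 0.14 (adjusted p = 0.673), and 0.31 without mutant array 1 (adjusted p = 0.121). Dok7, encoding the cytoplasmic activator of MuSK, had 8.47, 8.49 and 8.42 in mutants and 8.52, 8.79 and 8.60 in controls, with no overlap and a difference of -0.18 (95% interval -0.41 to 0.054, adjusted p = 0.417 with limma).

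Ache was the one gene of the muscle side of the junction that passed. It encodes acetylcholinesterase, which breaks down the transmitter in the cleft. It had 6.22, 6.43 and 6.37 in mutant arrays 1 to 3, against 6.85, 7.001 and 7.07 in control arrays 1 to 3, with no overlap. It fell by 0.63 on the log2 scale (standard error 0.10, 95% interval -0.87 to -0.39, adjusted p = 0.0286 with limma). The call was kept without mutant array 1 and was lost in each of the other 5 fits that left out 1 array, with adjusted p of 0.0555 to 0.169. Of the 33 listed muscle-side genes 28 were tested, and 0 were called higher and 1 lower, with a median difference of -0.14 (-0.024 without mutant array 1). The next smallest p-values belonged to Sntb2, a syntrophin of the dystrophin complex, at -0.44, Col4a1, a basement membrane collagen gene, at -0.69, and Dag1, encoding dystroglycan, at -0.34. Without mutant array 1 Col4a1 was -0.35 and Dag1 -0.19. Colq, encoding the collagen tail that anchors the esterase, lay under the filter with means of 5.09 in mutants and 4.92 in controls.

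**Figure D3:**
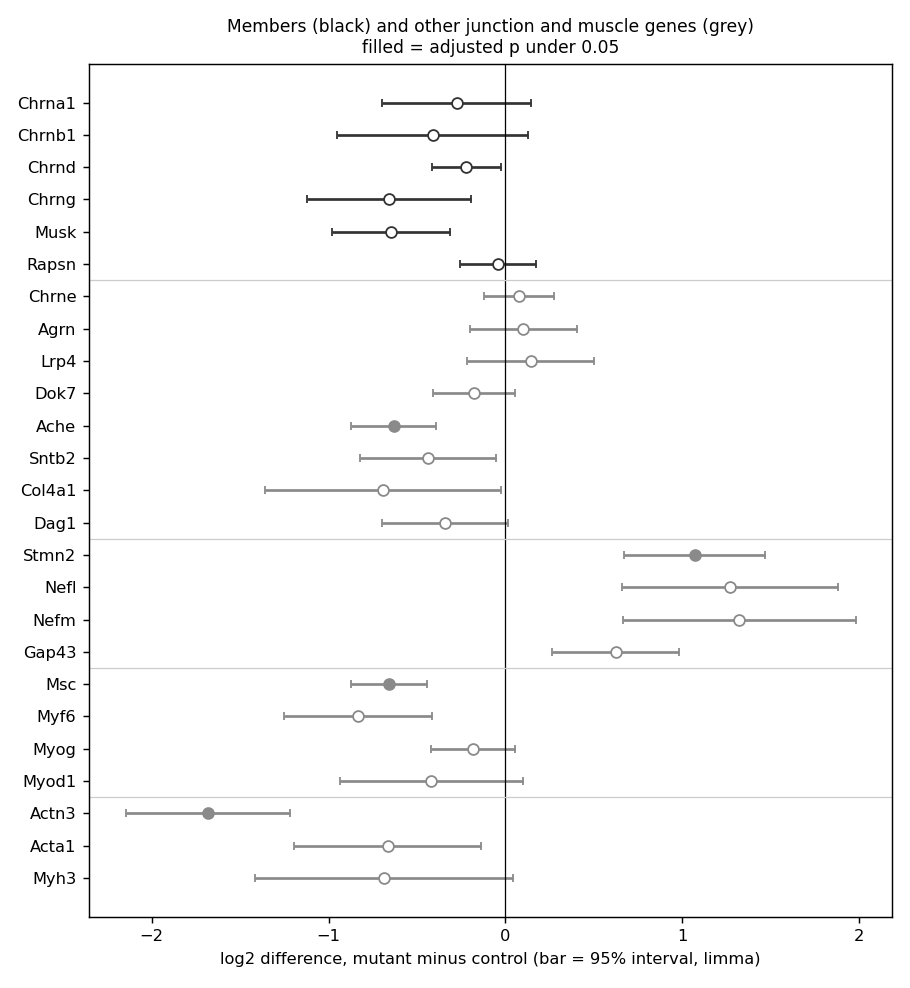
Log2 difference, mutant minus control, with its 95% interval for the 6 members (black) and for other genes (grey) of the muscle side, the nerve side, the myogenic regulators and the sarcomere, separated by lines; filled points have an adjusted p under 0.05. All 6 members sit left of 0, Rapsn closest to it. The nerve block holds only the 4 genes of that list with the smallest p, which sit between 0.62 and 1.32, where the median of the 15 tested was 0.22. Agrn, a gene of the same list, is drawn with the muscle-side genes and sits at 0.10.

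Most tested genes of the nerve-side list had a higher mean in the mutants, whereas the receptor genes had a lower one. Of 22 listed, 15 were tested and 11 had a positive difference, with 1 called higher (as were 180 of all 13645 tested genes), 0 called lower and a median of 0.22. Mnx1, also on the list, lay under the filter and went the other way. It had 3.45, 4.04 and 3.89 in mutant arrays 1 to 3, against 5.43, 4.88 and 4.99 in control arrays 1 to 3. Its groups did not overlap, its difference was -1.31, and it was called lower in the fit without a filter. Stmn2, encoding a microtubule regulator of growing axons, rose by 1.07 (standard error 0.17, adjusted p = 0.0272 with limma), and it had 8.32, 8.78 and 8.92 in mutant arrays 1 to 3, against 7.80, 7.499 and 7.51 in control arrays 1 to 3. Its call was kept without mutant array 1 and lost without each of the other 5 arrays (adjusted p of 0.0530 to 0.149) and as the mean of its probe sets (0.0698). The neurofilament genes Nefl and Nefm gave 1.27 and 1.32 (adjusted p = 0.0599 and 0.0674 with limma), and Nefl passed with the replicate number as a block (0.0317). Gap43, encoding a growth cone protein, gave 0.62 (adjusted p = 0.103). Without mutant array 1, 6 of the 15 were called higher, namely Gap43, Nefm, Prph, Snap25, Stmn2 and Tubb3, as were 433 of all 13645 tested genes. Snap25 had a control mean of 4.87, under the filter value of 5.17. It was tested only through its mutant mean of 5.59, so its call carries little weight. Chat, which encodes the enzyme that makes acetylcholine and so marks cholinergic nerve, lay under the filter at 4.46 in mutants and 4.32 in controls. Which nerves the other listed transcripts came from was not tested, so the higher means are not a measure of motor nerve. Of the 7 tested Schwann cell genes 0 were called in the reported fit, with all arrays and no weights, block or covariate. With mutant array 1 left out 4 were called higher, namely Cdh19, Fabp7, Ngfr and Sox10. The mean level of the 7 was 8.07 to 8.55 in mutants and 7.98 to 8.03 in controls. Fabp7, a marker of glial precursors, gave 0.72 (adjusted p = 0.0621 with limma, 0.0351 with the block), Cdh19 gave 0.63, S100b 0.37 and Sox10 0.34. Sox10 was 0.15 with its probe sets averaged (adjusted p = 0.362 with limma). Of the 7, 6 had a positive and 1 a negative difference, Erbb3 at -0.20. Foxd3 gave 0.036 with overlapping groups.

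Of the listed regulators of myogenesis and of receptor genes, Msc alone was called in the reported fit. Of 24 listed, 23 were tested, with 0 called higher and 1 lower. With array quality weights Myf6, Six4 and Id3 were called as well (adjusted p = 0.00808, 0.0435 and 0.0328 with limma). In that fit 7.58% of all tested genes were called. With the sex covariate 0 of the 23 were called. Msc, encoding a bHLH repressor of muscle precursors, had 8.90, 9.10 and 9.08 in mutant arrays 1 to 3, against 9.70, 9.68 and 9.69 in control arrays 1 to 3, and fell by 0.66 (adjusted p = 0.0188 with limma). It lost the call without mutant array 2 and without each control array (adjusted p of 0.0545 to 0.127). Myf6, encoding a myogenic bHLH factor of differentiating fibres, gave -0.83 (adjusted p = 0.0682), Six4, encoding a homeobox factor, gave -0.57 (0.120), and Id3, encoding an inhibitor of bHLH factors, gave 0.55 (0.126). Myog, the myogenic factor that binds receptor gene E-boxes, had 12.32, 12.54 and 12.61 in mutant arrays 1 to 3, against 12.64, 12.69 and 12.68 in control arrays 1 to 3, a difference of -0.18 (95% interval -0.42 to 0.053, adjusted p = 0.409 with limma). Myod1 gave -0.42 (95% interval -0.94 to 0.098). Hdac4 and Dach2, which link loss of nerve activity to receptor gene expression in adult muscle, gave -0.27 and 0.31 (adjusted p = 0.572 and 0.448). Leaving out mutant array 1 moved Hdac4 to -0.0024, Dach2 to 0.15, Myod1 to -0.17 and Myog to -0.0997.

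Most sarcomere genes had a lower mean in the mutants, as the receptor genes did. Of 32 listed genes of the contractile apparatus 31 were tested, 27 had a negative difference, 3 were called lower and 0 higher, and the median was -0.55 (-0.44 without mutant array 1). Without that array 4 were called lower, the fourth being Myoz2, named after its values were seen. With the replicate number as a block 11 were called lower, with array quality weights 13, and with sex as a covariate 1, Actn3. Of all 13645 tested genes 207, 400 and 58 were called lower in these 3 fits, against 112 in the reported fit. The 3 genes called in the reported fit were Actn3, Smyd1 and Nrap. Actn3, the fast-fibre alpha-actinin gene, gave -1.68 (adjusted p = 0.0105 with limma). Smyd1, a methyltransferase gene, gave -0.55 (adjusted p = 0.0470), and Nrap, a myofibril assembly gene, gave -1.63 (adjusted p = 0.0476). Smyd1 was -0.18 with its probe sets averaged (adjusted p = 0.270) and lost its call, as it did with the sex covariate (0.126), and Nrap lost its call with that covariate (0.0843). Both calls were kept without mutant array 1 and lost without each of the other 5 arrays, and Actn3 lost its call without mutant array 2, control array 2 or control array 3 (adjusted p of 0.0544 to 0.0702). Acta1, skeletal actin, gave -0.67 (adjusted p = 0.202 with limma, 0.0262 with the block), Myh3, embryonic myosin, gave -0.69 (0.325), and Ckm, muscle creatine kinase, gave -0.10 with controls between 9.10 and 10.54. Without mutant array 1 Acta1 was -0.44 and Myh3 -0.29. In Actn3, Smyd1, Nrap, Acta1 and Myh3 every mutant array lay below every control array, in Myh3 only narrowly (highest mutant 13.604, lowest control 13.605). This was so in 18 of the 31 tested genes of the list, and in 11.5% of all tested genes. In 1 of the 31, Tnnc1 (0.22), every mutant array lay above every control array. Cav3 (0.16), Mybpc1 (0.090) and Tnni1 (0.078) also had a positive difference, with overlapping groups. Relative to the control means, the median of the 31 genes was -0.71, -0.39 and -0.32 in mutant arrays 1 to 3, against -0.20, 0.097 and 0.10 in control arrays 1 to 3. In each group array 1 was the lowest.

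Set against this sarcomere median of the same array, the member genes lay on both sides of 0. Chrng minus the sarcomere median was -0.44, -0.058 and -0.064 in mutant arrays 1 to 3, against 0.16, -0.092 and -0.066 in control arrays 1 to 3, a relative difference of -0.19 with overlapping groups (exact permutation test, two-sided, p = 0.6). Musk gave a relative difference of -0.18 (exact p = 0.2), with mutants between -0.24 and -0.11 and controls between -0.16 and 0.23. Rapsn was higher than the sarcomere median in every mutant array, by 0.61, 0.47 and 0.21 in mutant arrays 1 to 3, against 0.20, -0.13 and -0.074 in control arrays 1 to 3. Its relative difference was 0.43 (exact p = 0.1, the smallest that 3 against 3 can give), and the nearest arrays of the groups, at 0.2077 and 0.2032, almost touched. Chrna1, Chrnb1 and Chrnd gave 0.20, 0.060 and 0.25 (exact p = 0.3, 0.8 and 0.2). The median over the 6 was 0.13, and without mutant array 1 the relative differences were -0.061 for Chrng, -0.14 for Musk, 0.34 for Rapsn, 0.29 for Chrna1, 0.18 for Chrnb1 and 0.17 for Chrnd. Taking same-numbered arrays as pairs, mutant minus control was 0.23, 0.26 and 0.26 for Chrnd, 0.40, 0.60 and 0.28 for Rapsn, and -0.47, -0.012 and -0.042 for Musk in pairs 1 to 3, each of these genes with 1 sign in all 3 pairs. Their exact paired p was 0.25, the smallest that 3 pairs allow, while Chrna1, Chrnb1 and Chrng had pairs of both signs (exact p = 0.5, 1.0 and 1.0). No member could pass a threshold of 0.05 in either test.

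**Figure D4:**
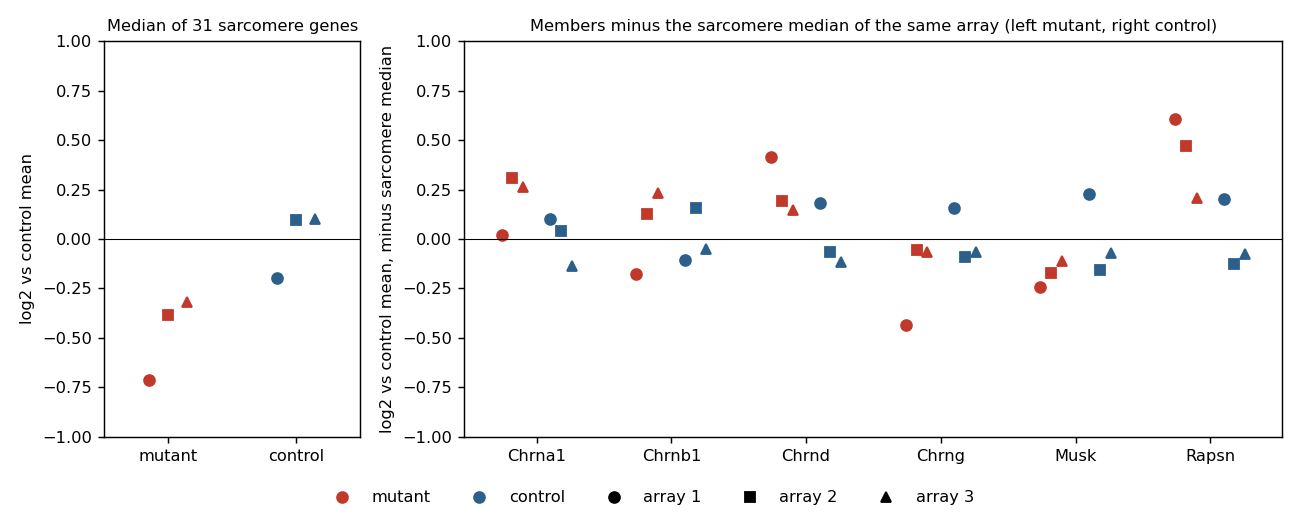
Left, median over 31 sarcomere genes on each array relative to the control mean (log2); right, each member relative to its control mean minus that median, mutants left and controls right of each gene name. The sarcomere medians of all mutant arrays lie below those of all controls, and after subtraction Chrng and Musk overlap between the groups while Rapsn lies between 0.21 and 0.61 in mutants.

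Marker levels of other cells of the tongue also differed between the groups, and their part in these results was not tested. Of 8 epithelial genes 8 had a positive difference (median 0.59). None was called in the reported fit, whereas Krt14 and Krt15 were called higher without mutant array 1, and Krt14 and Epcam with the block. Their mean level was 10.93 to 11.67 in mutants and 10.57 to 10.75 in controls. Of 6 endothelial genes 6 had a negative difference (median -0.44, and -0.12 without mutant array 1), with 0 called, or 1, Cldn5, called lower without mutant array 1. Their mean level was 6.59 to 7.36 in mutants and 7.501 to 7.59 in controls. Of 8 macrophage genes 3 were called higher, C1qa, C1qb and C1qc (median of the 8 0.39), with mean levels of 7.86 to 7.95 in mutants and 7.35 to 7.59 in controls. Of all 13645 tested genes 180 were called higher. In 4 of the 8 macrophage genes every mutant array lay above every control array. The groups overlapped for Csf1r (0.020), Adgre1 (0.19), Ptprc (0.23) and Cx3cr1 (-0.0063). Of 8 mesenchyme genes 5 had a negative and 3 a positive difference, and 2 were called higher, Lum and Dcn (median of the 8 -0.11, and 0.18 without mutant array 1). The mean level of the 8 was 11.13 to 11.73 in mutants and 11.38 to 11.53 in controls. Dcn lost its call with probe sets averaged (0.41 against 0.65, adjusted p = 0.0585) and with the sex covariate (0.0613), and C1qb and C1qc lost theirs with that covariate (0.112 and 0.0779). Csf1r, Adgre1, Ptprc and Cx3cr1 are named because their groups overlapped, and the other marker genes because they were called, after all values were seen. Mutant array 1 had the highest epithelial and the lowest endothelial and mesenchymal mean of the 6 arrays.

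The mean profile of the 6 members, each centred on its own mean, was -0.50, -0.052 and -0.017 in mutant arrays 1 to 3, against 0.12, 0.24 and 0.21 in control arrays 1 to 3. The 5 genes outside the members with the most similar profile over the 6 arrays were Psmd11, a proteasome subunit gene (Pearson r = 0.9997), Synpo2l, a gene of a muscle actin-binding protein (0.9991), Bend4 (0.9985), Uggt1, a gene of glycoprotein folding (0.9982), and Shank3, a gene of a synaptic scaffold (0.9974). Of all tested genes 119 exceeded an r of 0.98. All of them share these 6 arrays, and the 6-point profile is led by the low mutant array 1. Synpo2l differed by -0.83 (adjusted p = 0.172 with limma, 0.0492 with the block), and the other 4 by -0.65 to -0.22 without a call.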

How the data were processed

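RNA from 6 tongues was labelled with biotin as cRNA and hybridised to 1 Affymetrix array each. The authors deposited log2 values; RMA is the tool named, per the submitters' processing notes, without its version. RMA normally corrects background, normalizes quantiles and summarizes probes, so it compresses differences of dim probe sets and hides a change shared by most genes. Arrays have no read depth, and their number sets the precision; over the tested genes the standard error of the fitted difference had a median of 0.117.

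Of 45101 probe sets, 34945 had 1 gene symbol in the platform annotation, 932 had several and 9160 had none. The probe set with the highest mean stood for each of 18193 genes, and the lowest 25% by mean (under 5.17) were left out, leaving 13645. The comparison of genotypes used lmFit and eBayes of limma 3.58.1 (R 4.3.3, two-sided, no covariate), which was tested on simulated data, with Benjamini-Hochberg adjustment. Exact permutation tests used scipy 1.17.1. Promoter sequences are from RefSeq (GRCm38.p6).

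Members, gene lists and tests were chosen with earlier results of these data known. Named were all members, the called genes of each junction list or else the 4 with the smallest p, 11 further junction genes and regulators, 6 sarcomere genes, the 5 genes most like the members, and Tgfbr2. Other list genes are named, after their values were seen, where called in a fit, Mnx1 in the fit without a filter. Further list genes (Erbb3, Foxd3, Csf1r, Adgre1, Ptprc, Cx3cr1, Tnnc1, Cav3, Mybpc1 and Tnni1) are named to show overlap or the other direction. The remaining 64 probe sets were controls. Same-numbered arrays of the groups deviated together (correlations 0.309, 0.105 and 0.206 over the tested genes, all above the limit of 0.1), so the title numbers were taken to pair the arrays. Unlike numbers also correlated for mutant array 2 with control array 3 (0.196) and mutant array 3 with control array 2 (0.147). The other 4 such pairs lay between -0.273 and -0.171, so arrays 2 and 3 are not told apart by this check. No label says what an array number stands for, so the block and the paired tests rest on an assumed pairing. The fit without the block was kept as the one reported.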

Additional observations from a re-analysis of the deposited data

How the results depend on the processing

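The count of member genes called was 0 and remained 0 without a filter, with the lowest 50% left out (which drops Chrnd), with probe sets averaged per gene or all tested singly, with median centring or a further quantile normalization, with trend and robust fitting, with the replicate block and with sex as a covariate. It was 2 with array quality weights, 1 at an adjusted p under 0.1 (Musk) and 0 to 2 with 1 array left out, 2 (Chrng and Musk) being the value without mutant array 1. Of the member probe sets, 2 (of Chrng and Musk) passed without mutant array 1, which was tried only once the values were known. With the replicate block Musk had an adjusted p of 0.0583 and Chrng 0.0822 (limma). With sex as a covariate, set from Xist, which was high in mutant arrays 1 and 3 and control array 1, they had 0.173 and 0.307. The count of all genes was 292, but 151 with the lowest 50% left out, 1034 with array quality weights, 490 with the replicate block, 135 with the sex covariate, 549 at an adjusted p under 0.1, and 16 to 670 with 1 array left out (16 and 19 without control arrays 2 and 3). Of the other junction genes 3 were called, but 15 with array quality weights, 5 with the replicate block, 0 with the sex covariate, 7 at an adjusted p under 0.1 and 0 to 12 with 1 array left out (12 without mutant array 1, 1 without mutant array 3, and 0 when mutant array 2 or control arrays 2 or 3 were left out). Of the sarcomere genes 3 were called, but 11 with the replicate block, 13 with array quality weights, 1 with the sex covariate, with the lowest 50% left out or with all probe sets tested singly, and 0 to 4 with 1 array left out (0 without mutant array 2, control array 2 or control array 3, and 1 without mutant array 3); these counts were added after the values were known. Among the genes named by rule, the block changed the calls of Nefl, Fabp7, Acta1 and Synpo2l and no other. The median difference of the members and their median relative to the sarcomere genes kept their sign and moved by less than the spread between arrays under each alternative run. Among the genes named by rule, signs turned for genes without a call: with 1 array left out Chrna3 ran from -0.044 to 0.32, Chrna7 from -0.070 to 0.16, Chrnb3 from -0.20 to 0.031, Tgfbr2 from -0.30 to 0.014 and Ckm from -0.57 to 0.15, while Agrn was -0.13 with probe sets averaged and Ckm 0.068 with the sex covariate. Ngfr, called higher without mutant array 1 alone among the settings given per gene, was -0.031 with probe sets averaged, against 0.29. The cause of these changes was not tested.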
